A study of Mus musculus with 5 samples.

Results

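The insulin-like growth factor (IGF) axis is described here by 10 genes, listed by name and matched to the deposited gene identifiers by symbol. They are the ligand Igf1, the receptor Igf1r, the adaptors Irs1 and Irs2, and the binding proteins Igfbp2, Igfbp3, Igfbp4, Igfbp5, Igfbp6 and Igfbp7. They are 10 of the 27729 genes measured. All 10 reached 10 expected counts in at least 1 library, as did 13346 genes in all. Irs2 was the only member that did not reach that number in each of the 5.

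RNA was sequenced from mouse embryonic fibroblasts (MEFs) of ICR embryos on their way to neuron-like cells, and the question is how gene expression moves over that time. The MEFs, a mixed primary culture from embryos whose heads and inner organs were taken out, were kept in serum medium until day 0. Per the study's methods, a short trypsin step took out loosely attached cells with the potential to form neurons. The libraries of days 2, 5, 10 and 14 came from cells in a defined medium, called 5C in the study and 6C in the labels. Its parts are the N2 supplement, which holds insulin, transferrin and selenite, together with basic fibroblast growth factor (bFGF), leukemia inhibitory factor (LIF), vitamin C and 2-mercaptoethanol. Insulin, a ligand of the axis at high dose, was thus supplied in every library except day 0, and the change of medium and the time in culture cannot be told apart. The library labelled day 14 is given as day 15 in the treatment text of the same label. Each day is 1 library, so no test between days was possible, and the intervals below cover counting error alone.

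IGF1 and IGF2 are secreted growth factors that activate the receptor tyrosine kinase IGF1R, which also pairs with the insulin receptor. The activated receptors phosphorylate the adaptors IRS1 and IRS2, which dock PI3-kinase and start AKT signalling. IGF-binding proteins hold IGFs outside the cell, where they limit access to the receptor, extend the life of the ligand or store it in the matrix, and proteases that cleave them set the ligand free. IGFBP7 is a more distant relative that binds IGFs weakly.

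The libraries held between 2253748 (day 2) and 3890334 (day 0) expected counts, which are RSEM's estimates of the reads from each gene. Normalized counts are these estimates divided by the library size after TMM scaling, and a gene is called past 2-fold where its log2 change of normalized counts + 1 was above 1 or below -1. The fibroblast markers were measured in every library, with a summed level of 9114 to 14550 TPM, a scale of transcripts relative to the library total that divides by gene length. Change depended on gene length in these libraries. With the genes split by length into 10 groups of equal size, the median log2 change from day 0 to day 10 was -1.47 in the shortest group and 1.04 in the longest. Each member is therefore also set beside the median of its own length group. Values given in a row follow the order of the days. TPM itself moved as a scale, with a median log2 change over the 13346 genes of 1.09 on day 10, against 0.14 in normalized counts.

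In each later library, more of the 10 genes stood past 2-fold above day 0 than below it. By day 2, 4 were past 2-fold above day 0 (15.2% of all genes were) and 2 below (13.1% of all genes). These were Igfbp7 and Irs2, the latter on 2 and 0 counts, so that 1 gene was below on more than 3 counts. On day 5, 5 were above (20.2% of all genes) and 3 below (13.6%). On day 10, 6 were above (28.7%) and 3 below (22.3%). On day 14, 5 were above (24.5%) and 2 below (19.9%). These 4 comparisons share the day 0 library. From day 10 to day 14, 1 was past 2-fold above (4.73% of all genes) and 3 were below (8.33%). Igf1, Igfbp4 and Igfbp5 were past 2-fold above day 0 on all 4 later days. The genes below day 0 depended on the scale. In TPM, 1 of the 10 was below day 0 on day 2 (14.0% of all genes) and 0 on days 5 and 10 (3.98% and 6.77%). On day 14 it was 2 (6.96%). The numbers above were the same in TPM, but the share of all genes above was not. That share was 7.9%, 32.0%, 52.9% and 41.6% on days 2, 5, 10 and 14. On days 10 and 14 the numbers above in TPM were thus nearer to the share of all genes than in normalized counts. Against genes of like length, 5 were above (23.8% of all genes) and 1 was below (18.4%) on day 10.

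**Figure D1:**
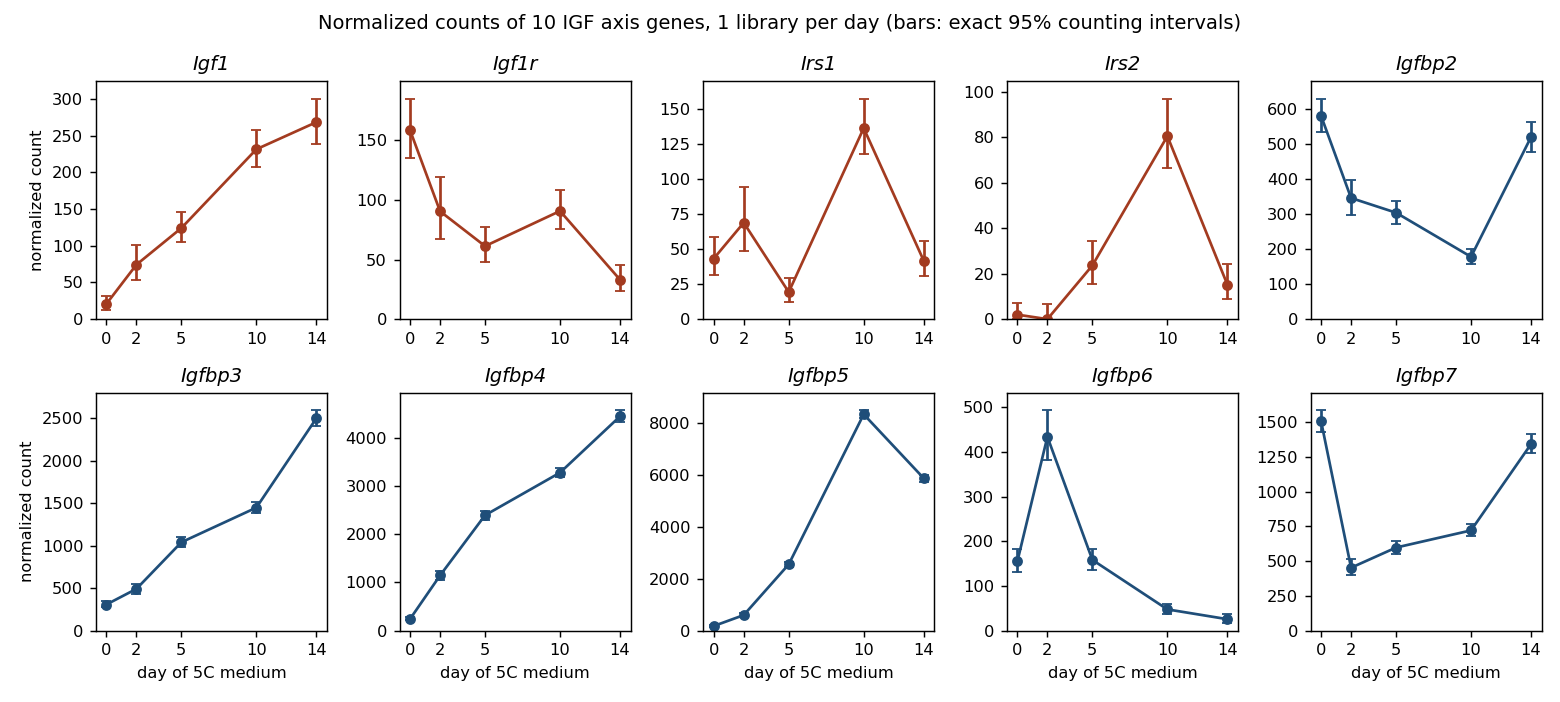
Each panel plots the normalized count of 1 gene (vertical axis, linear from 0) against the day of 5C medium, with exact 95% counting intervals from 1 library per day. Igf1, Igfbp3 and Igfbp4 climb from day 0 to day 14, Igfbp5, Irs1 and Irs2 are highest on day 10, and Igfbp2 and Igfbp7 dip and come back.

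Igf1 (ENSMUSG00000020053), the growth factor that mediates much of the action of growth hormone and is also made by stromal cells and macrophages, lies on chromosome 10 (GRCm38 87858265 to 87937042, plus strand). It had 20.8 normalized counts in the first library and then 74.2, 124, 231 and 268. Each later library was above day 0, and the last 2 lay within counting error of each other (log2 change from day 10 to day 14 0.21, 95% interval -0.02 to 0.44). The level was 3.57-fold that of day 0 on day 2 (log2 change 1.79, interval 1.04 to 2.67) and 12.9-fold on day 14 (3.63, interval 3.05 to 4.40). Of the 13346 genes, 4.14% had a larger log2 change on day 14. In TPM, Igf1 went from 5.13 to 16.0, 46.8, 57.5 and 54.7. The files list 8 transcripts for Igf1, and the mean transcript length that RSEM used moved from 1446 bases on day 0 to 3185 on day 10, so longer transcripts took more of its reads in the last 2 libraries. An antisense gene across the locus, Igf1os, held at most 3.67 expected counts in a library.

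Igf1 remained the minor IGF. Igf2, the fetal growth factor of the axis, had 14290, 7273, 16570, 10930 and 10120 normalized counts in the order of the days, and none of its changes against day 0 was past 2-fold, although its TPM on day 2 was 0.432 times that of day 0. The TPM of Igf2 was 722 times that of Igf1 in the first library and 56.9 times in the last. Ins1 and Ins2, the insulin genes, had 0 counts in all 5 libraries.

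Markers of other cells moved over the same days as Igf1. Of 16 macrophage markers, 15 were kept, and 15, 14, 12 and 11 of these were past 2-fold above day 0 on days 2, 5, 10 and 14, with 0, 1, 1 and 1 below. Of all genes, 15.2%, 20.2%, 28.7% and 24.5% were above on these days, and 13.1%, 13.6%, 22.3% and 19.9% below. The summed TPM of the macrophage markers was 79.1, 618, 1924, 1465 and 923. The marker below was Itgam, an integrin of myeloid cells, with 61.9, 177, 17.6, 6.81 and 7.21 normalized counts. Lyz2, a lysozyme of myeloid cells, had 108, 1177, 2738, 1407 and 974 normalized counts and made up 1252 of the 1924 TPM of day 5. The markers with the largest rise by day 14 were Cd5l, from 0 to 333, and Mrc1, from 1.98 to 47.4. The microglial and monocyte receptor Cx3cr1 had no count on days 10 and 14. Of 9 adipocyte markers, 8 were kept and 7 of them were past 2-fold above day 0 on days 10 and 14, with a summed TPM of 54.9, 93.1, 472, 1636 and 2403. The fat cell genes Adipoq and Plin1 had 0 counts on days 0 and 2 and reached 264 and 150 expected counts on day 14. Of the 9 adipocyte markers, 5 had 0 counts on day 0, as had 2 of the 16 macrophage markers. In any list, a gene at 0 on day 0 could be kept only through a later library, and so could not be below day 0. The part of either cell type in the level of Igf1 was not tested. In a bulk library, more cells of a type and more RNA per cell cannot be told apart.

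**Figure D2:**
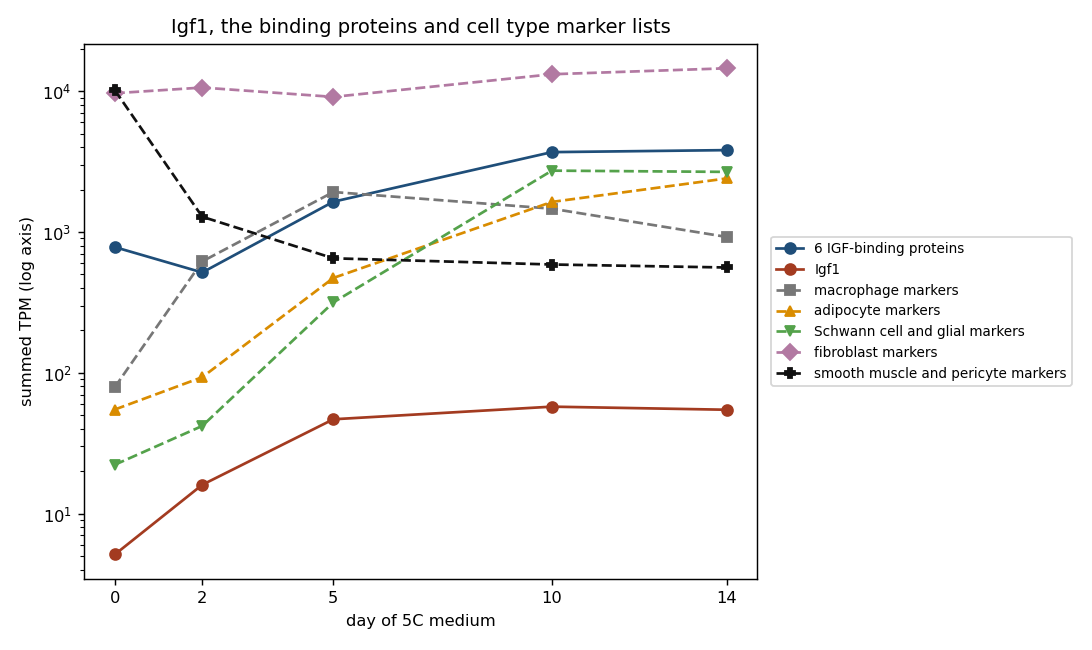
Summed TPM (vertical log axis) of the 6 binding proteins, of Igf1 alone and of 5 cell type marker lists against the day of 5C medium, 1 library per point. The binding proteins go from 782 TPM on day 0 to 3817 on day 14, the adipocyte and glial lists climb over the same days, the summed macrophage list is highest on day 5 and the smooth muscle list falls from 10170 TPM.

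Igf1r (ENSMUSG00000005533), the receptor for both IGFs, lies on chromosome 7 (67952827 to 68233668, plus strand). It had 158, 90.5, 61.3, 90.7 and 33.1 normalized counts. Day 0 was the highest and day 14 the lowest, with days 2, 5 and 10 between them. On day 14 the level was 4.79-fold below day 0 (log2 change -2.23, interval -2.82 to -1.74), and it was 2.74-fold below day 10 (-1.43, interval -2.02 to -0.92). In TPM the day 14 level was 0.384 times that of day 0. Genes in its length group had a median log2 change of 0.46 on day 14. On day 10 the direction depended on the scale, at -0.80 in normalized counts, -1.59 against genes of like length and 0.34 in TPM.

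The other receptors of the axis took another course. Insr, the insulin receptor, had 83.1, 97.7, 109, 203 and 193 normalized counts and was 2.32-fold above day 0 on day 14 (log2 change 1.21, interval 0.85 to 1.60). Its log2 change was 0.65 above the median of its length group on day 14 and 0.23 above it on day 10. Igf2r, which clears IGF2 and sorts lysosomal enzymes, had 1175, 1369, 3157, 3477 and 1532, past 2-fold above day 0 on days 5 and 10 and 2.27-fold lower on day 14 than on day 10. Against genes of like length its log2 change against day 0 was 1.10 on day 5 and 0.52 on day 10. The later step was -0.70 on that scale, so only the day 5 change stayed past 2-fold. Compared per length, Igf1r stood at 3.97 times the TPM of Insr on day 0 (counting interval 3.03 to 5.23), at 0.93 times on day 10 (0.75 to 1.15) and at 0.36 times on day 14 (0.25 to 0.51). The order of the 2 receptors on day 14 was thus the reverse of day 0, with neither ahead beyond counting error on days 5 and 10. The insulin receptor-related gene Insrr had at most 2 counts.

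Irs1 (ENSMUSG00000055980), the main adaptor of both receptors in many tissues, lies on chromosome 1 (82233101 to 82291416, minus strand). Its normalized counts were 43.2, 68.8, 19.3, 136 and 41.7. The day 10 library stood above all others and the day 14 level was back within counting error of day 0 (log2 change -0.05, interval -0.68 to 0.58). Day 10 was 3.15-fold above day 0 (1.63, interval 1.17 to 2.15), and day 14 was 3.27-fold below day 10. Irs1 is in the longest group of genes, whose median log2 change on day 10 was 1.04, and against that median its change was 0.59, no longer past 2-fold. Gm9747, a gene on the opposite strand within the locus, had 124, 0, 125, 133 and 131 expected counts, and the library kit does not mark the strand.

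Irs2 (ENSMUSG00000038894), the adaptor known for its role in liver, beta cells and brain and as a FOXO target, lies on chromosome 8 (10984681 to 11008458, minus strand). Its expected counts were 2, 0, 27, 113 and 17, or 1.98, 0, 23.6, 80.5 and 15.2 after normalization. The first 2 libraries were at or under 3 counts, so no size of the change between them is given, and its place among the genes below day 0 on day 2 rests on these counts. Day 10 was 40.7-fold day 0, with a counting interval of the log2 ratio from 3.46 to 8.41 that reflects the 2 counts of day 0. The later step is better measured, with day 14 lying 5.30-fold below day 10 (log2 change -2.33, interval -3.24 to -1.67). Of the 13346 genes, 1.27% had a lower change from day 10 to day 14. Both adaptors were highest on day 10 and below it on day 14. Per length in TPM, Irs2 was at 2.79 times Irs1 on day 5 (counting interval 1.53 to 5.14). The ratio was 1.34 on day 10 (1.06 to 1.71) and 0.83 on day 14 (0.44 to 1.46). Irs3 reached 12 counts on day 14 from 3 on day 0, and Irs4 had at most 1.

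**Figure D3:**
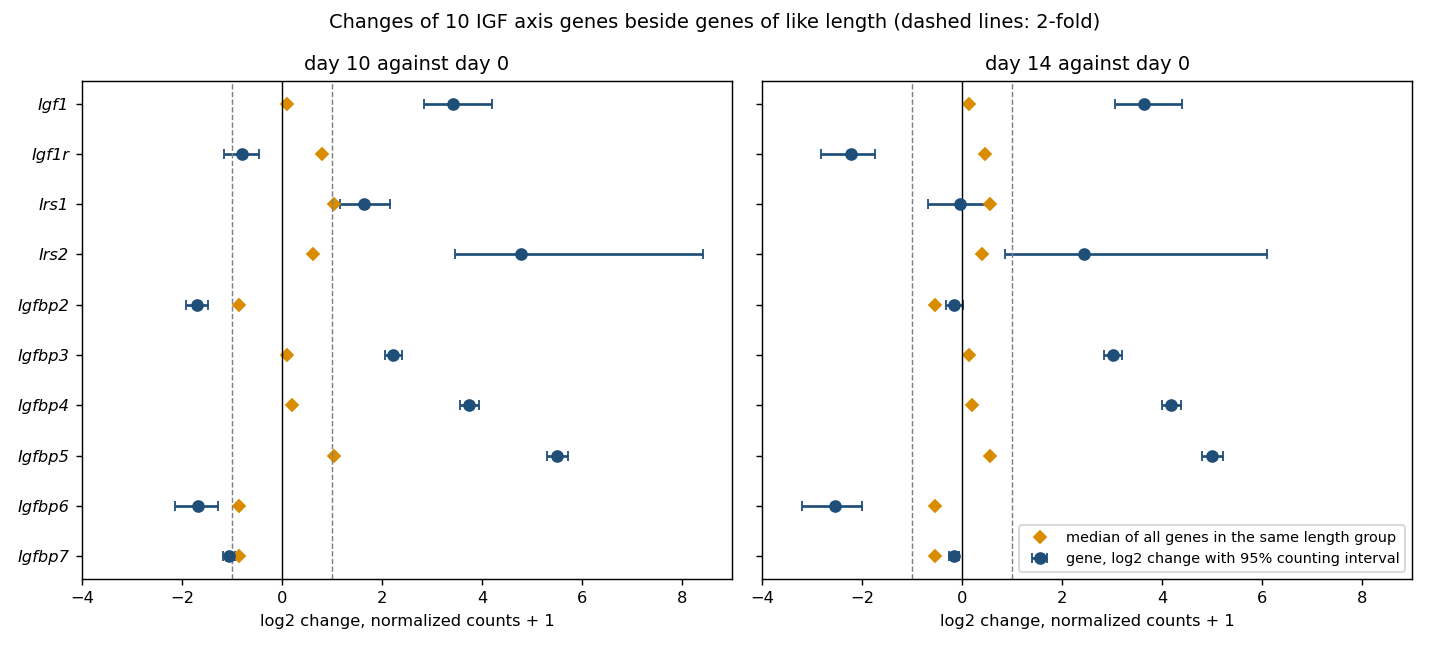
Circles give the log2 change of each gene against day 0 on day 10 (left) and day 14 (right) with exact 95% counting intervals, and diamonds the median change of all genes in the same length group. Igf1, Igfbp3, Igfbp4, Igfbp5 and Irs2 lie beyond the 2-fold line and above their diamonds on both days, Igfbp7 lies near its own on day 10, and Igf1r lies far below its own on day 14.

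The 6 binding proteins fell into 2 groups by their normalized counts on day 14 against day 0. Igfbp3, Igfbp4 and Igfbp5 were past 2-fold above day 0 on day 14, although Igfbp5 was then lower than on day 10. Igfbp2, Igfbp6 and Igfbp7 were at or below their day 0 level on day 14, although in TPM Igfbp2 and Igfbp7 were then at 1.53 and 1.63 times day 0. Their courses differed, since Igfbp6 was highest on day 2 while Igfbp2 and Igfbp7 dipped and came back. The promoters of the 3 that gained and of Igfbp6, which lost most, are shown to let their sequences be compared. They are taken from RefSeq on GRCm38.p6, from 250 bases before to 50 after the start of the gene, on the strand of the gene. RefSeq's start of Igfbp6 lies before the GENCODE start given below, so its window ends upstream of the latter. Capitals mark a match to TATAAA or TATATA, the exact letters searched on both strands for a TATA box.
Igfbp3 promoter, chr11:7213874-7214173, minus strand: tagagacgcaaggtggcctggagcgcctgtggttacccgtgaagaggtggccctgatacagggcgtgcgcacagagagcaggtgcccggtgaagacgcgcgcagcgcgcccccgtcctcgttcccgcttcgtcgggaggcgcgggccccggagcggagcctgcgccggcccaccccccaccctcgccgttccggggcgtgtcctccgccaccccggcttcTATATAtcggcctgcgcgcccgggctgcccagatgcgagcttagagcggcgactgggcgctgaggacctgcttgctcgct
Igfbp4 promoter, chr11:99040994-99041293, plus strand: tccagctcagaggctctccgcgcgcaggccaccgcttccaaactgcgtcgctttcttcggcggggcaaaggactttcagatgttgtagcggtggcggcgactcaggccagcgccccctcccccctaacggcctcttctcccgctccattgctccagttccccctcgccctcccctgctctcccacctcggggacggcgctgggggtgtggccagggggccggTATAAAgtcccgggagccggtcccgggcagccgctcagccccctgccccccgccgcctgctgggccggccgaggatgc
Igfbp5 promoter, chr1:72874816-72875115, minus strand: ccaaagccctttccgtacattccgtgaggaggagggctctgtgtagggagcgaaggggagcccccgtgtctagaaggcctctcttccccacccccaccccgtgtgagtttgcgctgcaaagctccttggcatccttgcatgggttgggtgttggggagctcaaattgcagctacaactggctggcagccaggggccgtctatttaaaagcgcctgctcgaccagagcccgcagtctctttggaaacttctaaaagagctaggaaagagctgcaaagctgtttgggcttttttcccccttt
Igfbp6 promoter, chr15:102143936-102144235, plus strand: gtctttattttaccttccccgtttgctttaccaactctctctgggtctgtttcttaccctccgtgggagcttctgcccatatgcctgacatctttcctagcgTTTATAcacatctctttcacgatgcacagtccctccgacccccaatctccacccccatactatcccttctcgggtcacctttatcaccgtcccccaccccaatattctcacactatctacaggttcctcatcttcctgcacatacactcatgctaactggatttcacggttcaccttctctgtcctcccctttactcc

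Positions give the leftmost base of a match, counted from the RefSeq start of the gene. This start is not always that of the GENCODE coordinates given for each gene. The windows of Igf1r and Irs2, like that of Igfbp6, end upstream of the GENCODE start. That of Igf1 lies inside the gene. The match began at position -30 in Igfbp3 (TATATA) and at position -28 in Igfbp4 (TATAAA). The window of Igfbp5 held neither of these exact letters. It does hold tatttaaa, a like stretch that was not searched for, so the lack of a match does not show that a TATA box is absent. The window of Igfbp6 held TATAAA at position -148 on the opposite strand. Of 32851 such windows in the RefSeq table, 13.6% hold TATAAA and 5.67% hold TATATA. The windows of Igfbp3 and Igfbp4 had a GC content of 71.7% and 71.3%, against 56.3% in Igfbp5, 49.7% in Igfbp6 and a median of 52.7% over all windows. Other short motifs were also searched on both strands. The AP-2 motif GCCNNNGGC, found in 16.6% of all windows, matched Igfbp5 at position -64 and none of the other 3, and the FOXO motif TGTTTTG, found in 6.28%, matched Irs1 at positions -111 and -32 and Irs2 at -37. The FOXO motif TGTTTAC (3.65% of all windows) and the SOX motif AACAAT (10.7%) matched none of the 11 windows of the 10 genes. The GC box GGGCGG (35.7%) matched windows of Igf1r, Igfbp2, Igfbp7, Irs1 and Irs2, the AP-1 motif TGANTCA (7.81%) those of Igf1 and Igfbp2, and the E-box CACGTG (7.15%) those of Igfbp2, Irs1 and Irs2. In Irs1 the E-box at position -115 overlaps the FOXO match at -111. These are matches of letters and no more.

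Igfbp5 (ENSMUSG00000026185), a binding protein of bone, muscle and mesenchyme that adheres to matrix, lies on chromosome 1 (72857932 to 72874884, minus strand). It had 183, 604, 2555, 8327 and 5867 normalized counts. All later libraries were above day 0, and day 10 was the highest. The level was 45.5-fold that of day 0 on day 10 (log2 change 5.50, interval 5.30 to 5.72) and 32.0-fold on day 14 (4.99, interval 4.79 to 5.22). Of the 13346 genes, 1.11% had a larger change on day 10. Igfbp5 is in the longest group of genes, and against their median its change was 4.46 on day 10 and 4.44 on day 14. The step from day 10 to day 14, -0.51, was like that of its length group (median -0.48).

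Igfbp4 (ENSMUSG00000017493), which mostly inhibits IGF action and is cleaved by PAPP-A, lies on chromosome 11 (99041244 to 99054392, plus strand). Its normalized counts were 245, 1145, 2392, 3274 and 4439. Each library was above the one before it, and by day 2 the level was already 4.67-fold that of day 0 (log2 change 2.22, interval 2.01 to 2.45). On day 14 it was 18.1-fold (4.17, interval 3.998 to 4.37). In TPM the values were 25.0, 87.4, 610, 1456 and 1458, a ratio of 58.3 between day 14 and day 0. The wider ratio goes with the mean transcript length used by RSEM, which went from 3441 bases on day 0 to 1785 on day 10 over 6 listed transcripts. By TPM Igfbp4 took place 4108 among all genes on day 0 and place 66 on day 10.

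Igfbp3 (ENSMUSG00000020427), the main IGF carrier of serum, lies on chromosome 11 (7206086 to 7213923, minus strand), 3.54 kb from Igfbp1 with no gene between them. It had 309, 492, 1040, 1447 and 2496 normalized counts. The climb ran through to the last library, which was 8.08-fold above day 0 (log2 change 3.01, interval 2.85 to 3.19) and 1.73-fold above day 10 (0.79, interval 0.70 to 0.87). Its neighbour Igfbp1, the insulin-repressed binding protein of liver, had 0 counts in all 5 libraries. Igfals, whose product holds IGFBP3 and IGF in the large serum complex, had 0, 0, 1, 7 and 10 counts, which on day 14 is at least 3.01-fold above the 3 counts that a library at 0 allows.

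Igfbp2 (ENSMUSG00000039323), a binding protein of fetal and neural tissue, lies 5.46 kb from Igfbp5 on chromosome 1 (72824503 to 72852474, plus strand), with no gene between them. It had 580, 346, 304, 178 and 519 normalized counts. Day 10 was the lowest and day 14 lay within counting error of day 0 (log2 change -0.16, interval -0.33 to 0.01). From day 10 to day 14 it was 2.92-fold higher (1.54, interval 1.33 to 1.77), and 1.85% of the 13346 genes had a larger change over that step. In normalized counts the neighbours thus moved in opposite directions between day 5 and day 10, with Igfbp5 3.26-fold higher and Igfbp2 1.71-fold lower. Their length groups also moved apart over this step, with a median log2 change of 0.69 for that of Igfbp5 and -0.53 for that of Igfbp2. The log2 change of Igfbp2 was -0.77, or -0.24 against genes of like length and -0.27 in TPM. Most of its fall was thus shared by genes of like length, whereas Igfbp5 stayed past 2-fold higher on both of these scales. Igfbp2 is a short gene, with a mean length of 1037 to 1281 bases. Its change on day 10 was -1.70, or -0.84 against the median of its length group and -0.52 in TPM, so only the first is past 2-fold.

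Igfbp7 (ENSMUSG00000036256), a secreted matrix protein, lies on chromosome 5 (77349240 to 77408041, minus strand). It had 1507, 453, 598, 722 and 1342 normalized counts. The drop came by day 2, to 3.32-fold below day 0 (log2 change -1.73, interval -1.93 to -1.54), and the later libraries each stood higher than the one before. On day 14 it was 1.12-fold below day 0 (-0.17, interval -0.27 to -0.06). On day 10 the change of -1.06 was just past 2-fold, was -0.20 against genes of like length and turned to 0.10 in TPM. Polr2b overlaps the locus on the opposite strand, with 81.4 to 325 expected counts.

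Igfbp6 (ENSMUSG00000023046), which prefers IGF2 over IGF1, lies on chromosome 15 (102144362 to 102149511, plus strand). It had 155, 434, 158, 47.8 and 25.9 normalized counts. It was the one binding protein that was highest on day 2, at 2.79-fold day 0 (log2 change 1.47, interval 1.19 to 1.78), and lowest on day 14, at 5.99-fold below day 0 (-2.54, interval -3.21 to -2.01). Against genes of like length the day 14 change was -1.99 and in TPM it was -1.65, both past 2-fold. On day 10 the change was -1.68, with -0.82 against genes of like length and -0.53 in TPM.

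Summed over the 6 binding proteins, TPM was 782, 516, 1642, 3694 and 3817. Beside Igf1 and Igf2 together, that is 0.21 binding protein transcripts per ligand transcript on day 0 and 1.20 on day 14. The make-up of the sum changed as well. Igfbp7 held 61.1% of it on day 0 (counting interval 58.1% to 64.3%) and Igfbp2 22.0%. On day 2 the order was least clear, since Igfbp7, Igfbp6, Igfbp2 and Igfbp4, at 121, 116, 99.5 and 87.4 TPM, each overlapped their neighbour within counting error. Igfbp4 led the last 3 libraries with 37.2%, 39.4% and 38.2%. Igfbp5 held 1.54% in the first library, 29.7% on day 10 and 16.5% at the end, and Igfbp6 went from 22.5% on day 2 to 0.40% at the end. The lead of Igfbp4 on day 10 rests on the transcript lengths. With 1 length per gene, the mean over the libraries, Igfbp5 held 35.2% and Igfbp4 29.9% on that day.

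**Figure D4:**
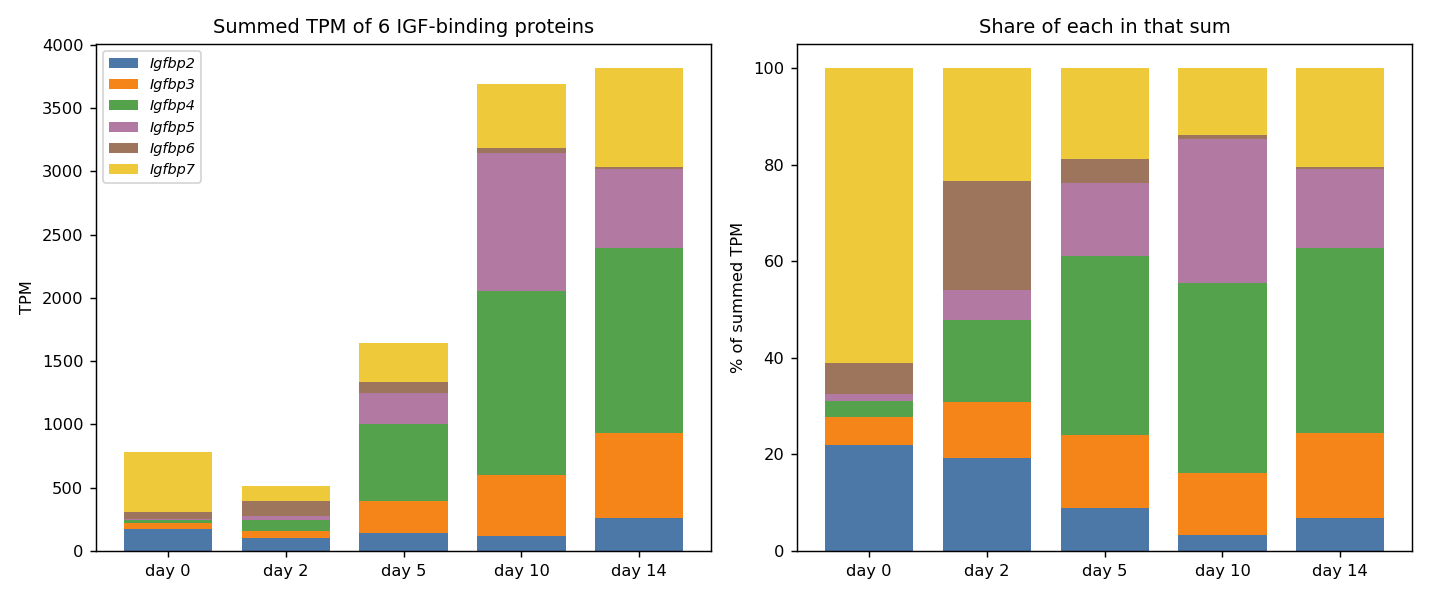
Stacked bars give the TPM of the 6 binding proteins (left) and the percentage of each in their sum (right) for the 5 libraries, without error bars. Igfbp7 fills most of the day 0 bar at 61.1%, and Igfbp4 and Igfbp5 together with Igfbp3 fill most of the bars of days 5, 10 and 14.

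Enzymes that cleave binding proteins, and their inhibitors, moved in both directions. All 13 of the listed genes were kept, of which 6 were above and 4 below day 0 past 2-fold on day 10, and 5 and 4 on day 14. Of all genes, 28.7% were above and 22.3% below on day 10, and 24.5% and 19.9% on day 14. The median log2 change was 0.91 on day 10 and 0.52 on day 14, against 0.14 and 0.07 over all genes, and 0.24 and 0.11 against genes of like length. Mmp2, a gelatinase, had 955, 1795, 5770, 9067 and 14490 normalized counts, and Plat, the tissue plasminogen activator, went from 57.4 to 508. Prss23, a listed serine protease gene, fell from 3554 to 215. Whether its product cleaves binding proteins was not tested. Pappa, whose product cleaves IGFBP4 and IGFBP5, had 102, 34.4, 93.6, 250 and 102, and was thus highest on day 10 with Igfbp5. Stc2, an inhibitor of PAPP-A, had 27.7, 5.43, 9.63, 21.7 and 195, and was highest on day 14. Pappa2 and Stc1, in the same list, took another course. They were highest on day 5, at 48.1 and 78.75 normalized counts, and stood at 16.1 and 8.94 on day 14. Pappa, Pappa2, Stc1 and Stc2 were named after their values were seen.

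Downstream of the receptor, 32 of 33 listed PI3K-AKT and RAS pathway genes were found and kept. On day 10, 6 were above day 0 past 2-fold (28.7% of all genes were) and 5 below (22.3%). On day 14 it was 4 (24.5%) and 5 (19.9%). The median log2 changes on these days were 0.29 and 0.13. Against genes of like length these medians were -0.43 and -0.31. Socs3, a feedback inhibitor of cytokine and insulin receptors, had 42.6, 183, 544, 405 and 1023 normalized counts, and the docking protein gene Gab1 went from 64.3 to 354. Trib3 and Eif4ebp1, which restrain AKT and translation, fell from 104 to 25.9 and from 931 to 310. In TPM their log2 changes by day 14 were -0.77 and -0.72, not past 2-fold.

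Of 17 listed genes, made up of FOXO factors and of known FOXO targets that AKT signalling represses through FOXO, 16 were kept. The counts below take factors and targets together. Past 2-fold above day 0 were 3, 8, 12 and 11 in the 4 later libraries, with 1, 2, 2 and 2 below. Of all genes, 15.2%, 20.2%, 28.7% and 24.5% were above in these libraries, and 13.1%, 13.6%, 22.3% and 19.9% below. The median log2 change was 1.53 on day 10 and 1.54 on day 14, or 1.28 and 1.34 against genes of like length. Cdkn1b, a cell cycle inhibitor, went from 22.8 to 156 normalized counts and Txnip, an inhibitor of glucose uptake, from 116 to 748. Cited2 fell from 808 to 124 and Klf2 from 139 to 52.7. In TPM the log2 change of Klf2 by day 14 was -0.50, not past 2-fold.

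Other cell type markers moved over the same days. Beside them, 28.7% of all genes were past 2-fold above day 0 and 22.3% below on day 10, and 24.5% and 19.9% on day 14. All 12 glial and Schwann cell markers were past 2-fold above day 0 on days 10 and 14, with a summed TPM of 22.3, 42.0, 316, 2729 and 2674, and Sox10 and Cdh19 reached 2230 and 1295 expected counts from 7 and 4. Of 15 fibroblast markers, 6 were above and 4 below on day 10. Lum and Dcn, matrix proteoglycan genes, went from 23.8 to 1486 and from 102 to 2989 normalized counts by day 14, while Twist2 fell from 272 to 40.8 and S100a4 from 8624 to 1626. Of 8 smooth muscle and pericyte markers, 7 were below day 0 on day 10, with Acta2 falling from 32040 to 142 and Cnn1 from 357 to 2.68 by day 14, and Mcam going from 222 to 1887. Of 13 neuron markers 8 were kept, with 5 above and 3 below on day 10, and 5 of the 13 had 0 counts on day 14. Gap43 and Tubb3 reached 2411 and 161 normalized counts by day 14, whereas Map2 and Stmn2 fell from 196 to 45.6 and from 448 to 163. In TPM the log2 change of Stmn2 by day 14 was -0.58, not past 2-fold. Of 8 endothelial markers 4 were kept, and 5 of the 8 had 3 counts or fewer on day 0. Their summed TPM was 23.6 on day 0, most of it from Kdr (14.0) and Emcn (8.7), and 3.76 on day 14. Kdr went from 238 counts to 4. The summed TPM of the glial, fibroblast, neuron, macrophage and adipocyte markers was higher on days 10 and 14 than on day 0. So were Igfbp3, Igfbp4 and Igfbp5. The neuron sum was 136 TPM on day 0, 511 on day 10 and 1226 on day 14, of which Gap43 held 28.2, 406 and 1101. On day 14, 4 of the 8 kept neuron markers were past 2-fold above day 0 and 3 below. The fibroblast sum was 9677 TPM on day 0, with 7513 of it from S100a4, and 13200 on day 10. The median log2 change of the fibroblast list on day 10 was 0.59, or -0.26 against genes of like length. The part of any of these cells in the rise of Igfbp3, Igfbp4 and Igfbp5 was not tested.

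By the distance between the 4 log2 changes against day 0, compared with 8273 genes of 100 or more counts, the genes nearest to Igf1 were St6gal1 (distance 0.28) and Csad (0.39). Those nearest to Igfbp4 were Fam78b (0.26) and H2-Q6 (0.35), to Igfbp5 Fam129a and Nfasc (both 0.44) and to Igfbp3 H2-T23 (0.41) and Maf (0.42). H2-Q6 and H2-T23 belong to a family of near-identical genes, between which reads can be split. Igfbp2 was nearest to Med27 (0.41) and Sdhb (0.42), Igfbp7 to Prkab2 (0.31) and Klf6 (0.62), Igfbp6 to Birc5 (0.49) and B4galnt1 (0.78), and Igf1r to Farp1 (0.52) and Slc38a1 (0.59). The adaptors had no gene as close. Irs1 was nearest to Ppp1r12a (0.96) and Itgav (1.02), and Irs2 to Tbc1d8b (1.29) and Megf9 (1.42). The 4 changes share the day 0 library.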

How the data were processed

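The authors deposited RSEM expected counts (estimated counts per gene, unscaled), TPM values and FPKM values for 5 libraries, 1 per day. Per the labels, reads were processed with Bowtie and RSEM on mm10, and versions and annotation are not given in the sources used here. The members and gene lists were chosen with earlier results of these data known. Symbols and coordinates came from GENCODE M21 (GRCm38). Expected counts were rounded for TMM (edgeR 4.0.16, R 4.3.3), and log2 changes used a pseudocount of 1. Deposited TPM values served levels between genes and, like DESeq2 1.42.0 size factors, were an alternative for changes, and deposited FPKM values were an alternative for shares. A gene was kept where at least 1 library held 10 expected counts of it. Intervals are exact 95% Clopper-Pearson (changes) or Poisson (levels) intervals of rounded counts, without a pseudocount, and cover counting error only. For a library at 0 the floor was 3 counts. Named beside the members were other axis genes with 10 or more counts, the 2 largest rises and falls of each list on day 14 among genes with 100 or more counts, and the 2 nearest profiles, except 1 gene that is not reported here. The code was tested on simulated data.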

Additional observations from a re-analysis of the deposited data

How the results depend on the processing

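Of 49 log2 changes of the 10 genes, 33 were past 2-fold, of which 32 kept their sign and 26 stayed past 2-fold under all alternatives run, other than the 4-fold threshold and the filters. The exception in sign was Igfbp7 on day 10 against day 0, at 0.10 in TPM. Apart from Igfbp7 on day 10, TPM moved 32 of the 49 beyond their counting interval, and centring by length group moved 20. DESeq2 size factors, a pseudocount of 0.5, no filter, library sizes without the genes Gm42418 and Lars2, and TMM factors without the day 2 library (for the other days) left each count within 1.5 times its value. In what follows, brackets give the share of all genes under the same setting. The number below day 0 on day 2 was 1 in TPM (14.0%) and 1 with a pseudocount of 5 (10.0%). It was 1 where 10 counts were required in every library (9.5%) and 0 at 4-fold (2.92%). The number below day 0 on day 5 was 0 in TPM (3.98%) and 0 at 4-fold (2.78%). On day 10 it was 0 in TPM (6.77%), 1 against genes of like length (18.4%) and 0 at 4-fold (7.92%). At 4-fold, 1 was above day 0 on day 2 (5.36%). Between the last 2 libraries, 0 were above (0.922%) and 1 was below (2.1%) at 4-fold. In FPKM and in expected counts divided by length, all 30 shares of the binding proteins stayed within their counting intervals. With 1 fixed length per gene, chosen after seeing the data, 14 of 30 shares moved beyond counting error, and Igfbp4 on day 10 went from 39.4% to 29.9%. No paired analysis was possible because each day has 1 library. Depth limited Irs2 on days 0 and 2, with 2 and 0 counts.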
